A study of Rattus norvegicus with 9 samples.

Results

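Lung RNA of rats exposed to cigarette smoke (CS) was set against lung RNA of rats exposed to fine particulate matter (PM2.5), with 3 arrays of each exposure out of 9 arrays in the series, chosen by the titles of the samples. The animals were male Wistar rats, given as 6 to 8 weeks old, an age shorter than the exposure and taken here as that at its start. Each exposure lasted 90 days and served as a model of chronic obstructive pulmonary disease (COPD), and lungs were archived on day 90, 91 and 92 for replicates 1, 2 and 3 of each. The remaining 3 arrays are control rats that inhaled NS, an abbreviation the labels do not spell out, and are given below as levels only. The labels name neither a dose nor a source of smoke or particles, and between CS and PM2.5 they give no difference beyond the exposure. The control lungs were all archived on day 90. Each sample is called a biological replicate; nothing else says how the animals were housed or whether lungs were pooled, so the p-values measure the spread between these samples.

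Cigarette smoke and fine particles are both inhaled mixtures that carry polycyclic aromatic hydrocarbons, oxidants and metals to the airways and alveoli. There they meet epithelial cells and alveolar macrophages. Known responses include induction of xenobiotic enzymes through the aryl hydrocarbon receptor, activation of the NLRP3 inflammasome by particles and by extracellular ATP, and the release of cytokines. A whole-lung sample mixes all cell types, so a lower level may stand for fewer cells of a type or for less RNA per cell, which cannot be told apart here.

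Levels are log2 of the background-subtracted spot signal relative to the 75th percentile of the same array, so a level of 0 is a probe at that percentile and a difference of 1 is a 2-fold difference. On CS arrays the 75th percentile was a signal of 210 ± 13.2 (SD, n = 3). PM2.5 arrays had 205 ± 55.7 (SD, n = 3), with PM2.5 3 the brightest at 269. Between 37557 and 38195 of 38804 probes were well above background on each of the 6 arrays. CS 2, CS 3, PM2.5 1 and PM2.5 2 were scanned together as 1 slide, while CS 1 and PM2.5 3 came from scans that held no other array of this comparison. Robust spreads over probes between 2 arrays of different exposures, 0.27 to 0.57, covered about the same range as those within CS, 0.27 to 0.43, and within PM2.5, 0.30 to 0.56. Correlations over probes were 0.969 to 0.986 between exposures, 0.984 to 0.991 within CS and 0.983 to 0.988 within PM2.5. The median SD of a probe was 0.22 within CS, 0.27 within PM2.5 and 0.08 within control. Of 55 entries in 15 lists of lung and other cell type markers, 0 had a probe with a gene symbol, so the tissue label was not checked against markers.

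A small share of the probes differed between the exposures, some of them by a large amount. In a limma fit of the 6 exposed arrays, 627 of 37660 probes passed at an adjusted p below 0.05, which is 1.66% of those tested. With the replicate number, which in both groups stands for the same archiving day, as a block, 90 probes passed (0.239%), 26 higher and 64 lower in CS, and LOC108352165 did not. Of the 627 probes called without the block, 292 (0.775%) were higher in CS lungs and 335 (0.89%) were lower. The median size of the difference was 1.22 log2 units among the higher probes, or 2.33-fold, and 1.35 log2 units among the lower ones, or 2.54-fold. At least a 4-fold difference was seen for 34 of the higher and 76 of the lower probes. The share of called probes that were higher in CS was 46.6% in this scaling. It was 61.3% after centring on the median of detected probes and 55.6% after quantile normalization. Normexp background correction, here always followed by quantile normalization, gave 56.7%.

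**Figure D1:**
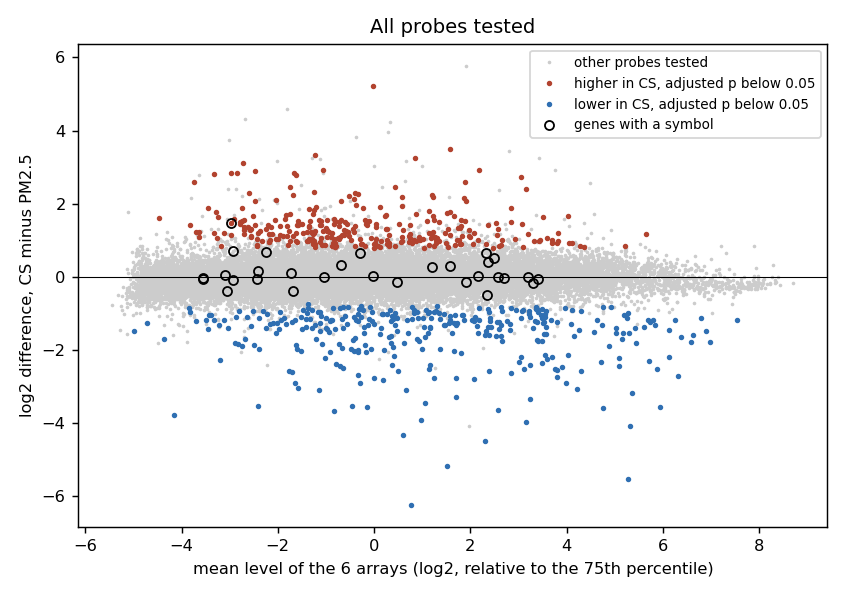
Each point is 1 of 37660 probes, with its mean level over the 6 exposed arrays on the x axis (log2, relative to the 75th percentile) and the log2 difference CS minus PM2.5 on the y axis. Red and blue points are the 292 higher and 335 lower probes at an adjusted p below 0.05, which reach 5.23 and −6.23. Open circles are the genes with a symbol, which lie mostly near 0, as do probes in general. The median absolute difference was 0.16 log2 units over these genes and 0.17 over all probes tested.

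The number of calls depended on the treatment of the spread and on single arrays. Quantile normalization gave 1382 calls (3.67%), 768 higher (2.04%) and 614 lower (1.63%) in CS, and kept 620 of the 627 with the same sign, 292 higher and 328 lower, with 0 probes called in opposite directions. Without CS 1, CS 2 or CS 3 the count was 220, 273 and 233, and without PM2.5 1, PM2.5 2 or PM2.5 3 it was 132, 414 and 316. Taking the control arrays into the estimate of the spread gave 2214 calls (5.88%). For the genes with a symbol that fit left the difference between CS and PM2.5 unchanged and gave a smaller SE. The control arrays were scanned together and had a median probe SD of 0.08, against 0.22 in CS and 0.27 in PM2.5. A pass in that fit is therefore no further measurement of the difference.

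The 4 arrays of the shared slide were compared among themselves, and the remaining pair of arrays took no part in that fit. On that slide, 387 probes (1.03%) differed between CS 2 and CS 3 on one side and PM2.5 1 and PM2.5 2 on the other, 143 higher and 244 lower in CS. In the pair left over, CS 1 minus PM2.5 3, all 143 higher probes were again higher and 229 of the 244 lower ones were again lower, so that 372 of 387 (96.1%) kept their sign. The median difference of these probes was 1.53 log2 units on the slide and 1.62 in the direction of the slide in the other pair. The median difference of all probes was −0.25 on the slide and 0.30 in the other pair, so values from these fits are read against those offsets. Over all probes tested the sign was the same in 39.5%, and the 2 sets of differences had a correlation of 0.0836 across probes, against 0.946 across the 387, which were chosen for large differences. Probes are not independent replicates, and the second comparison is 1 array against 1. After quantile normalization the slide gave 287 calls, of which 284 kept their sign in the other pair, where 47.9% of all probes did.

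**Figure D2:**
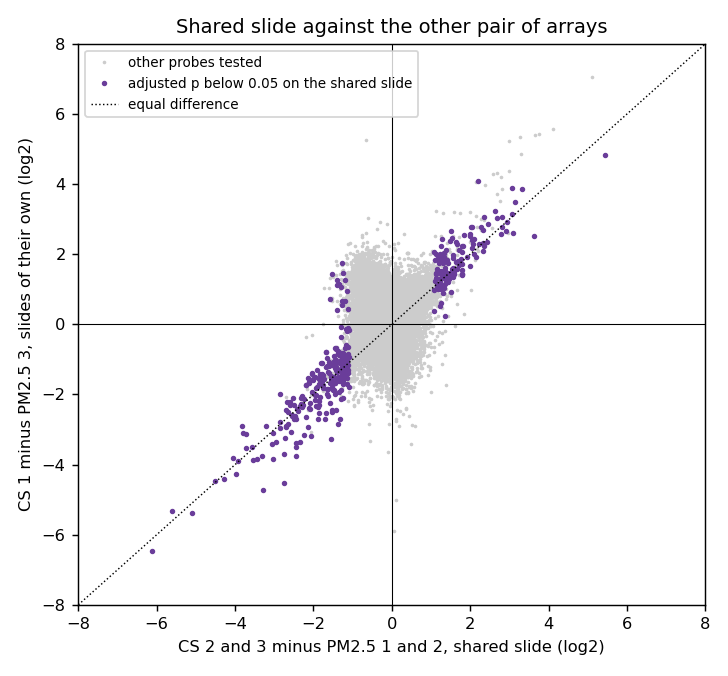
The x axis is the log2 difference of CS 2 and CS 3 minus PM2.5 1 and PM2.5 2 on their shared slide, and the y axis is the log2 difference CS 1 minus PM2.5 3, with 1 point per probe. The 387 probes called on the slide (purple) lie along the dotted line of equal differences, 372 of them with the same sign in both, and the other probes (grey) surround the origin.

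The largest differences were those of single-spot probes that carry the array's own identifier but no gene symbol. ASRNV20035711V3 had levels of −2.39, −2.38 and −2.25 on the CS arrays and 3.80, 3.82 and 4.06 on the PM2.5 arrays. Its CS level was 75.2-fold lower, a log2 difference of −6.23 (SE 0.16, adjusted p = 1.5e-05), and the control arrays stood near CS at −3.10 ± 0.08 (SD, n = 3). Both of these levels lie below the highest mean level among the E1A probes, Agilent controls for which rat RNA holds no target, so the fold rests on a level not above theirs. ASRN6AP1B100082834V3 had levels of 2.56, 2.75 and 2.24 on CS arrays and 7.96, 8.26 and 7.89 on PM2.5 arrays, with control at 1.74 ± 0.06 (SD, n = 3). Its difference was 46.0-fold (−5.52, SE 0.19, adjusted p = 5.02e-05). Both therefore had a PM2.5 level that stood far above the other groups.

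In the opposite direction, ASRN6AP1B100002148V3 had levels of 2.19, 3.03 and 2.57 on CS arrays and −2.49, −2.78 and −2.63 on PM2.5 arrays. It was 37.6-fold higher in CS (log2 difference 5.23, SE 0.23, adjusted p = 0.000139), and the control level of −0.23 ± 0.01 (SD, n = 3) lay between the exposures. Its PM2.5 mean of −2.63 also lies below the highest mean level among the E1A probes, with the same limit on the fold. ASRN6AP1B100070381V3 had levels of 3.52, 2.80 and 3.68 on CS arrays and 0.08, −0.26 and −0.33 on PM2.5 arrays. Its difference was 11.4-fold (3.51, SE 0.26, adjusted p = 0.0013), with control at 0.62 ± 0.04 (SD, n = 3). On the shared slide the 4 differences were −6.12, −5.62, 5.44 and 3.33 in the order given, and in the remaining pair −6.45, −5.34, 4.82 and 3.85; the probes were chosen on all 6 arrays, so neither set is independent of the choice.

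**Figure D3:**
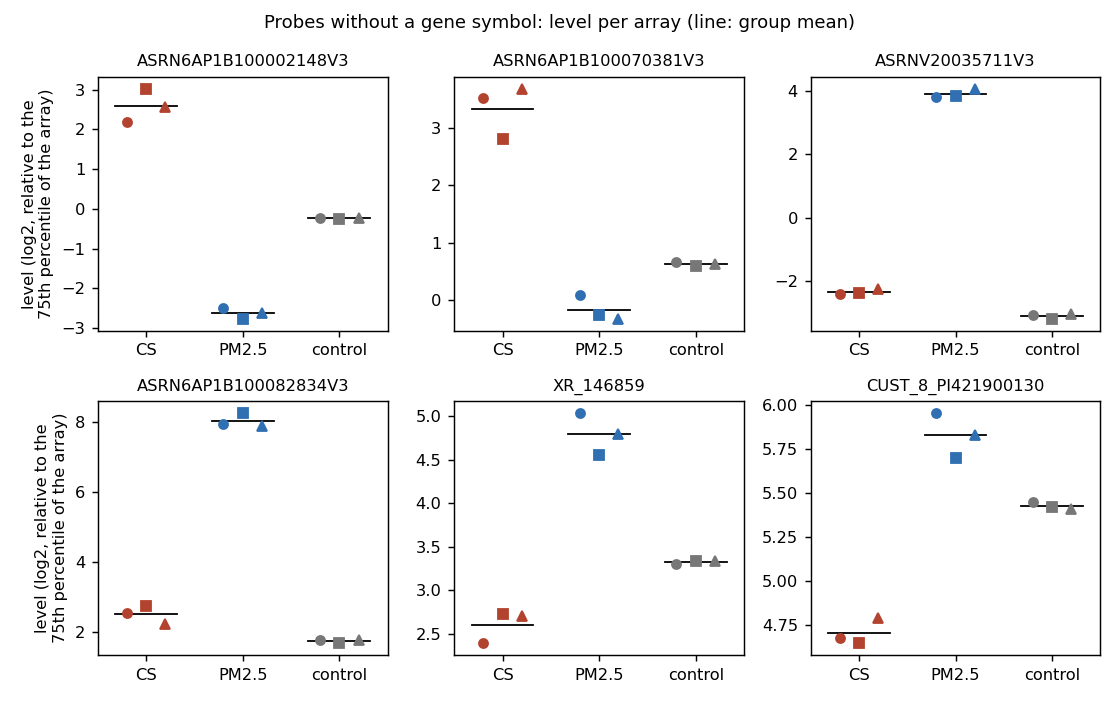
Level of 6 probes without a gene symbol on each of the 9 arrays (y axis, log2 relative to the 75th percentile of the array), by group on the x axis, with circles, squares and triangles for replicates 1, 2 and 3 and a line for the group mean. In each panel the CS and PM2.5 arrays do not overlap, from ASRNV20035711V3, 6.23 log2 units lower in CS, to CUST_8_PI421900130, whose groups lie 1.13 log2 units apart.

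Where the control arrays stood was described for the 620 probes called under both scalings, with the reservation that all control arrays were scanned together on another day from the exposed arrays, so that scan and control status cannot be told apart. Of the 328 probes lower in CS, the control mean was nearer to CS than to PM2.5 in 311 (94.8%) after 75th percentile scaling and 302 (92.1%) after quantile normalization. For the 292 probes higher in CS the counts were 190 (65.1%) and 218 (74.7%). Over all probes the control mean was nearer to CS in 63.4% and 54.7% under these scalings. These shares are not matched on direction, and a control mean below both exposures is nearer to the lower one by definition. After 75th percentile scaling it lay below both in 213 of the 328 lower probes and 21 of the 292 higher ones. Over all probes it did so in 27468 of 37577. After quantile normalization these counts were 161, 11 and 17832. With the authors' log2 values 74.7% and 92.1% of the higher and lower probes were nearer to CS. In 176 of the 620 probes (28.4%), every CS array lay on one side of every control array and every PM2.5 array on the other under both scalings. All 620 had CS and PM2.5 arrays that did not overlap, which this pattern requires, so the share is not set against that of all probes.

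The share of probes called, 1.66% over all, rose with level and varied between some classes of probe names, for which no test was run. Of the 7532 probes with the highest mean levels, 1 of 5 equal groups, 278 (3.69%) were called, 96 higher and 182 lower in CS. In the group with the lowest levels the share was 0.398%, and the median SD there was 0.37 in CS and 0.40 in PM2.5, against 0.15 in both for the highest group. Among probes whose names begin with ASRN6AP, 488 of 27726 were called (1.76%), 199 higher and 289 lower in CS. Among those beginning with ASRNV2 the share was much the same, 90 of 5263 (1.71%), but 71 were higher and 19 lower, and after quantile normalization 155 were higher and 35 lower. The ASRN6LNC probes gave 40 calls of 3642 (1.1%), 16 of them higher in CS. Probes named uc. gave 6 of 845 (0.71%), 5 of them higher in CS, from a median level of −3.32, the lowest of these classes. Median levels were −1.28 for ASRN6AP, −2.80 for ASRNV2 and −2.45 for ASRN6LNC. The Agilent catalogue probes gave 2 of 50 (4%), from a median level of 0.24. Shares by class were not matched on level, and what part level has in them was not tested. The 102 ASSPINKEIN probes, spotted 20 times each, gave 0 calls in limma, with 0.98% of them at an unadjusted p below 0.05.

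Gene symbols could be given to 30 of the 50 Agilent catalogue probes, 29 of them protein-coding, and each such probe is spotted 10 times per array. Of the 29 protein-coding genes, 0 passed in the 6-array limma fit, with 6 at an unadjusted p below 0.05, 5 higher and 1 lower in CS. Of all probes 11.8% were below it, 6.01% higher and 5.82% lower. In 6 genes the CS and PM2.5 arrays did not overlap, 5 with CS higher and 1 with CS lower, where 19.4% of all probes did not overlap (8.83% with CS higher and 10.5% with CS lower), so this count is near the background. The median difference over the 29 genes was −0.00 log2 units, and over all probes −0.07. In 17 of the 29 the difference was smaller than 0.25 log2 units, and the same held for 25126 of the 37660 probes tested. The SD over the spots of a gene's probe on 1 array was 0.04 to 0.26 with a median of 0.11, while the median SD between arrays was 0.17 in CS and 0.30 in PM2.5, and the SD was larger in PM2.5 for 24 of the 30 genes. The genes at or below the level of the highest E1A control probe were Nlrp3, Ppp2r2b, Napepld, Gdnf, Map2, Dlg4, Fgf2, P2rx2 and Lhcgr. LOC108352165 lay there too. The E1A probes themselves differed by −0.08 between CS and PM2.5.

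**Figure D4:**
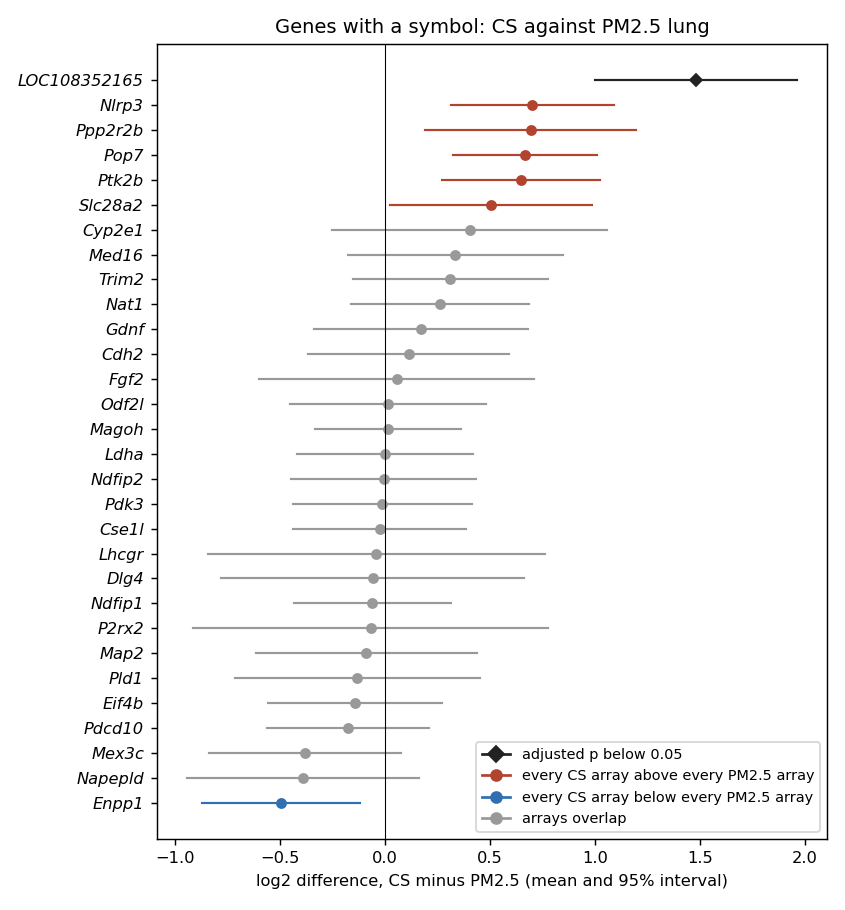
Log2 difference CS minus PM2.5 (x axis) of each gene with a symbol, with its 95% interval from the limma fit of 6 arrays. LOC108352165 is the gene that passed (black diamond), 5 protein-coding genes with every CS array above every PM2.5 array are red, Enpp1 with every CS array below is blue, and the other genes (grey) have intervals that include 0.

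The gene that passed was LOC108352165, a long noncoding RNA known by a placeholder symbol and named here after its values were seen. It had levels of −2.12, −2.55 and −2.05 on CS arrays and −3.73, −3.47 and −3.96 on PM2.5 arrays. It was 2.79-fold higher in CS (log2 difference 1.48, SE 0.21, adjusted p = 0.0165), and the groups did not overlap. The control level was −2.18 ± 0.01 (SD, n = 3), within the range of the CS arrays. All 57 unflagged spots on the 6 arrays were well above background, but the mean level of −2.98 lies among the E1A probes. The difference was 1.30 on the shared slide (adjusted p = 0.0370) and 1.84 in the remaining pair. It did not pass without CS 1 (adjusted p = 0.0715), without CS 3 (0.0895), without PM2.5 1 (0.112) or with the replicate number as a block (0.153), and after normexp background correction it was 0.51 (adjusted p = 0.0050).

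LOC108352165 lies on chromosome 10 of the GRCr8 assembly, on the plus strand. Its annotated start faces that of Eif4a3, which is on the minus strand and encodes an RNA helicase of the exon junction complex; the next gene after it is Card14, a scaffold of NF-κB signalling, 5984 bases on. The 69 bases between the starts of LOC108352165 and Eif4a3, chr10:105057562-105057630 in RefSeq, are printed on the plus strand because they are all that lies between this transcript and its neighbour; no deposited value was measured on them.
LOC108352165 to Eif4a3: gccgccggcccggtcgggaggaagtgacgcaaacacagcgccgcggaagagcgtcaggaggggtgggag

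Nlrp3 encodes the sensor of the inflammasome that activates caspase-1 and interleukin-1β. Its levels were −2.43, −2.66 and −2.63 on CS arrays and −3.24, −3.11 and −3.47 on PM2.5 arrays. Every CS array thus lay above every PM2.5 array, with a difference of 0.70 (SE 0.17), but the adjusted p of 0.109 missed the threshold. Here and for the genes below, the 21 alternative fits share arrays and in part scaling, so they are not independent. The fit with array weights called 40.4% of all probes. The difference passed in 5 of 21 alternative fits. It did so after quantile normalization (0.78, adjusted p = 0.0210), centring on the median (0.76, adjusted p = 0.0345) and with the authors' log2 values (0.80, adjusted p = 0.0217). The others were array weights and the fit with the control arrays in the spread (adjusted p = 0.0133), where it stayed 0.70 and the SE fell to 0.13. It did not pass with the replicate number as a block (adjusted p = 0.350), on the shared slide (0.224) or when any 1 array was left out. After normexp background correction it was 0.26 (adjusted p = 0.0543). All control arrays (−2.74 ± 0.02, SD, n = 3) lay between the CS and the PM2.5 arrays in this scaling, which did not hold for every array after quantile normalization. The other 11 entries in the list of inflammasome and innate sensing genes, among them Casp1, Il1b and Il18, had no probe with a symbol, and neither had any of the 12 cytokines and chemokines listed.

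Ptk2b encodes Pyk2, a calcium-responsive kinase of the focal adhesion kinase family. Its levels were 0.12, 0.14 and −0.15 on CS arrays and −0.73, −0.52 and −0.58 on PM2.5 arrays, with control at 0.11 ± 0.03 (SD, n = 3). The CS arrays lay close to control and the PM2.5 arrays below both. The difference of 0.65 (SE 0.16) had an adjusted p of 0.123 and passed in 6 of 21 alternative fits. It did so after quantile normalization (0.66, adjusted p = 0.0421), with the authors' log2 values (0.70, adjusted p = 0.0393) and with normexp (0.50, adjusted p = 0.0224). It also passed with a variance trend (adjusted p = 0.0426), with the control arrays in the spread (adjusted p = 0.0154) and with array weights. It did not pass with the replicate number as a block (adjusted p = 0.393), on the shared slide (0.211) or when any 1 array was left out. Of the 11 adhesion and junction genes listed, the others with a probe were Cdh2, which encodes N-cadherin, and Pdcd10, which acts in endothelial junctions, and 0 of the 3 passed in limma. Cdh2 differed by 0.11 (SE 0.21). Pdcd10 had levels of 3.27, 3.04 and 3.32 on CS arrays and 3.54, 3.38 and 3.23 on PM2.5 arrays, which overlapped, and its difference was −0.18 (SE 0.17, adjusted p = 0.849).

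**Figure D5:**
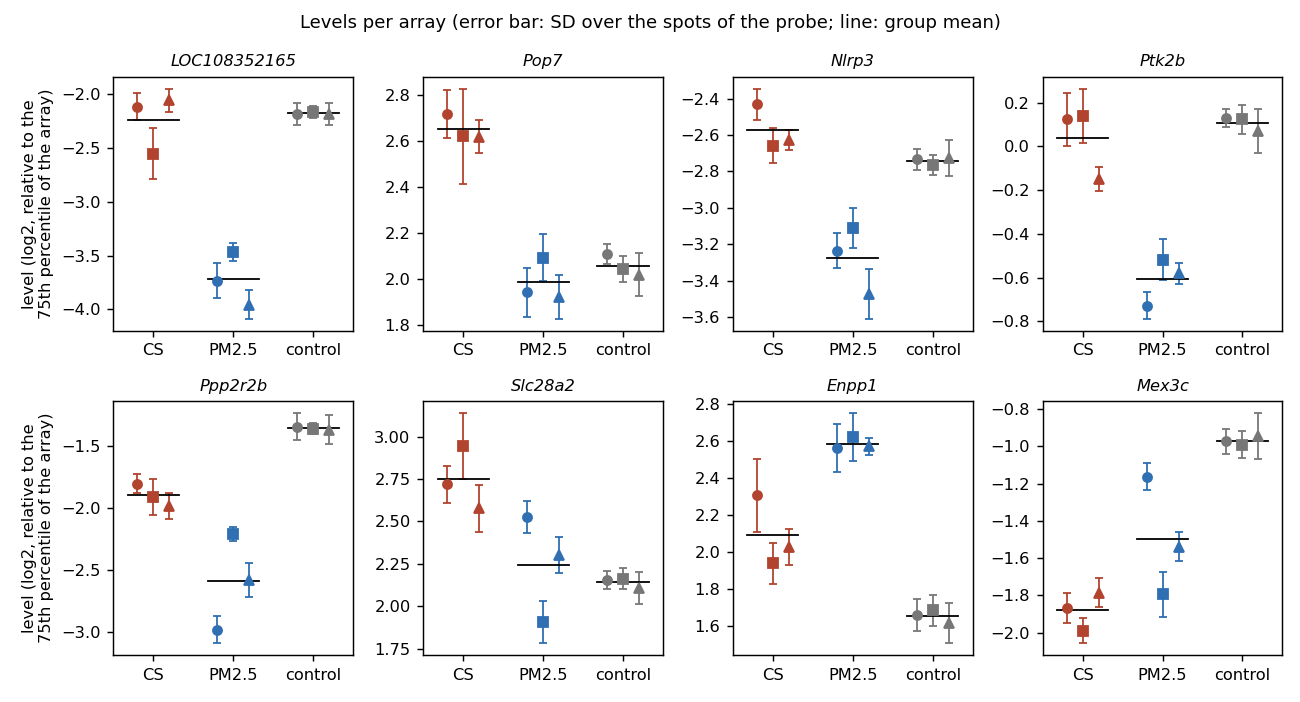
Level of 8 genes on each of the 9 arrays (y axis, log2 relative to the 75th percentile of the array), by group on the x axis, with circles, squares and triangles for replicates 1, 2 and 3, error bars for the SD over the spots of the probe and a line for the group mean. CS and PM2.5 arrays do not overlap for the first 7 genes, and for Mex3c CS 3 reaches the level of PM2.5 2.

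Among genes of RNA processing, transcription and translation, Pop7 had CS arrays that did not overlap with PM2.5. It encodes a protein subunit of ribonuclease P and ribonuclease MRP, which mature transfer and ribosomal RNA. Its levels were 2.72, 2.62 and 2.62 on CS arrays and 1.94, 2.09 and 1.92 on PM2.5 arrays. The CS arrays lay above both the PM2.5 arrays and the control arrays, which had 2.06 ± 0.05 (SD, n = 3). The difference of 0.67 (SE 0.15) had an adjusted p of 0.0855, was 0.60 on the shared slide and 0.80 in the remaining pair, and ranged from 0.56 to 0.73 over 21 alternative fits. It passed in 6 of these, at an adjusted p of 0.0338 after quantile normalization, 0.0449 with the authors' values, 0.0062 with normexp, 0.0099 with a variance trend and 0.0069 with the control arrays in the spread, besides array weights. Pop7 did not pass in limma with the replicate number as a block (adjusted p = 0.3485), on the shared slide (0.2052) or when any 1 array was left out.

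The other genes of this kind had overlapping arrays. Eif4b, a translation initiation factor, had levels of 2.02, 1.72 and 1.76 on CS arrays and 2.22, 1.90 and 1.82 on PM2.5 arrays (difference −0.15, SE 0.18, adjusted p = 0.923). Med16, a subunit of the Mediator complex, differed by 0.33 (SE 0.22). The value was 0.08 on the shared slide and 0.83 in the remaining pair, where the medians of all probes were −0.25 and 0.30. Of the 9 genes listed, these 3 had a probe and 0 passed. Magoh, a core protein of the exon junction complex, and Cse1l, which exports importin-α from the nucleus, were on no list and differed by 0.01 (95% interval −0.33 to 0.36) and −0.03 (−0.44 to 0.39).

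Extracellular purines are handled by enzymes, receptors and transporters, of which 3 of 11 listed genes had a probe and 0 passed in limma. Enpp1, the ectoenzyme that makes pyrophosphate from ATP, was the protein-coding gene whose CS arrays all lay below the PM2.5 arrays. Its levels were 2.31, 1.94 and 2.03 on CS arrays and 2.56, 2.62 and 2.57 on PM2.5 arrays, and control was lower than both at 1.65 ± 0.04 (SD, n = 3). The difference of −0.50 (SE 0.16) had an adjusted p of 0.245. It was −0.61 on the shared slide and −0.27 in the remaining pair, where the medians of all probes were −0.25 and 0.30. It passed in 3 of 21 alternative fits: with normexp (−0.50, adjusted p = 0.0443), with the control arrays in the spread (adjusted p = 0.0483) and with array weights. Enpp1 did not pass in limma with the replicate number as a block (adjusted p = 0.5558), on the shared slide (0.2015) or when any 1 array was left out.

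Slc28a2, a sodium-coupled transporter of purine nucleosides, had levels of 2.72, 2.95 and 2.58 on CS arrays and 2.53, 1.90 and 2.31 on PM2.5 arrays. CS 3 lay just above PM2.5 1, and the mean difference was 0.50 (SE 0.21, adjusted p = 0.392). P2rx2, an ATP-gated channel, differed by −0.07 (95% interval −0.91 to 0.78). Its 6 arrays, like those of Lhcgr, had the same order as the mean of the E1A control probes, from PM2.5 2, CS 1 and PM2.5 1 down to CS 3, CS 2 and PM2.5 3. This order was seen in 6.98% of all probes and in 11.8% of the 13007 in the E1A range, and what part the background signal has in these levels was not tested.

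Of the neuron-enriched genes, Ppp2r2b, which encodes a B subunit of the PP2A phosphatase, had levels of −1.80, −1.91 and −1.98 on CS arrays and −2.98, −2.21 and −2.58 on PM2.5 arrays. The PM2.5 arrays lay below CS and both lay below control, at −1.35 ± 0.01 (SD, n = 3). The difference was 0.69 (SE 0.22, adjusted p = 0.224), and 0.76 after quantile normalization (adjusted p = 0.0764). Without PM2.5 1 it was 0.50 and without PM2.5 2 it was 0.88. Map2, a microtubule-associated protein, and Dlg4, the postsynaptic scaffold PSD-95, differed by −0.09 (SE 0.23) and −0.06 (SE 0.31). Of the 6 genes listed, 0 of the 3 with a probe passed.

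Genes of xenobiotic and energy metabolism had overlapping arrays. Cyp2e1, a cytochrome P450 that oxidises ethanol and small solvents, ranged from 2.22 to 2.81 on CS arrays and from 1.66 to 2.66 on PM2.5 arrays, with a difference of 0.40 (95% interval −0.25 to 1.06). Nat1, an arylamine N-acetyltransferase, differed by 0.26 (−0.16 to 0.69). These were the 2 of 16 listed xenobiotic genes with a probe; Cyp1a1, Cyp1b1 and Nqo1 were among those without a symbol here, as were all 12 genes of the oxidative stress response. Ldha, a lactate dehydrogenase subunit, had a mean of 3.20 in both groups, with a difference of −0.00 (−0.42 to 0.42). Pdk3, a kinase that inactivates pyruvate dehydrogenase, differed by −0.01 (−0.44 to 0.41).

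Of the ubiquitin ligases and their adaptors, 4 of 9 listed genes had a probe and 0 passed. Mex3c, an RNA-binding ligase, had levels of −1.87, −1.99 and −1.79 on CS arrays and −1.16, −1.80 and −1.54 on PM2.5 arrays. The groups met at CS 3 and PM2.5 2, and the difference was −0.38 (SE 0.20, adjusted p = 0.550). Trim2, a ligase first studied in neurons, differed by 0.31 (SE 0.20). Ndfip1 and Ndfip2, membrane adaptors of Nedd4-family ligases, differed by −0.06 (95% interval −0.43 to 0.31) and −0.01 (−0.45 to 0.43).

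The remaining genes were growth factors, phospholipid enzymes and a centrosome gene, and their arrays overlapped in this scaling; after quantile normalization those of Napepld (−0.30, adjusted p = 0.256) and Gdnf (0.25, adjusted p = 0.436) did not. Napepld, whose enzyme releases N-acylethanolamines, had levels of −2.91, −3.61 and −3.22 on CS arrays and −2.81, −2.58 and −3.17 on PM2.5 arrays. The difference was −0.39 (SE 0.24, adjusted p = 0.650). It was −0.72 on the shared slide and 0.26 in the remaining pair, where the medians of all probes were −0.25 and 0.30, and −0.34 on the slide after quantile normalization. Pld1, phospholipase D1, differed by −0.13 (SE 0.25). Fgf2, a fibroblast growth factor, differed by 0.05 (95% interval −0.60 to 0.71), Gdnf, a neurotrophic factor, by 0.17 (−0.34 to 0.68), and Lhcgr, the luteinizing hormone receptor, by −0.04 (−0.85 to 0.76). Odf2l, a gene of the centrosome, differed by 0.01 (−0.45 to 0.48).

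Apart from LOC108352165, 1 of the 50 catalogue probes passed, and it was named after its values were seen. The probe for XR_146859, an accession without a symbol in the gene table, had levels of 2.39, 2.72 and 2.70 on CS arrays and 5.04, 4.55 and 4.80 on PM2.5 arrays. Its CS level was 4.57-fold lower, a log2 difference of −2.19 (SE 0.19, adjusted p = 0.0023), with control between the exposures at 3.32 ± 0.02 (SD, n = 3). One further probe outside the single-spot classes passed, CUST_8_PI421900130, spotted 20 times, with 4.67, 4.64 and 4.79 on CS arrays and 5.96, 5.70 and 5.83 on PM2.5 arrays (−1.13, SE 0.15, adjusted p = 0.0148).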

How the data were processed

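Whole-lung RNA of 9 samples was hybridised to custom 1-colour Agilent arrays. Per the labels' protocols, lungs were pulverised while frozen, TRIzol was used for extraction and 10 µg of RNA were labelled with the Agilent Quick Amp kit. The deposited scanner files give intensity, which per the file headers came from version 11.0.1.1 of Feature Extraction, background subtracted within each array and not normalized between arrays. Also given are the median spot signal, the median background signal and flags of 0 or 1 (uniform, well above background, saturated). Of the spots, 0 were saturated. The authors' deposited log2 values have nearly equal sorted columns, as quantile normalization gives, each with a median of 6.03; the method is not given in the sources used here.

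Non-uniform and outlier spots were left out, log2 signals of a probe's spots were averaged, and the 75th percentile of each array was subtracted. Probes well above background on all 3 arrays of CS or of PM2.5, with a value on all 6, were kept (37660 of 38804, 97.1%). The 3 CS and 3 PM2.5 arrays were compared by two-sided moderated tests (limma 3.58.1, its lmFit and eBayes functions, under R 4.3.3), with Benjamini-Hochberg adjustment over all probes tested; control arrays were left out of the spread. The number of arrays limits the precision, and an exact permutation test of 3 against 3 arrays cannot go below 0.1. Accessions were matched to the RefSeq gene table of GRCr8. Slides were read from scan records. Same-numbered CS and PM2.5 arrays share an archiving day, per the labels, so the number was also fitted as a block; their deviations from the group means correlated at 0.179, −0.449 and 0.054. The fit was tested on simulated data. The genes given in full are those that passed, with or without the control arrays in the fit, and the 5 higher and 5 lower genes with the smallest p; probes without a gene are the 2 largest differences in each direction under both scalings. The members, gene lists and rules were chosen with earlier results of these data known. Alternatives were other scalings, background correction, filters, variance models, blocks, array sets, a 2-fold threshold, the median over spots and leaving out each array. The background correction was normexp on the median spot signal, followed by quantile normalization.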

Additional observations from a re-analysis of the deposited data

Results flagged for a closer look

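Results are listed here where the exposures stood on opposite sides of the control arrays under 75th percentile scaling, quantile normalization and the authors' log2 values alike, among the genes and probes named above, or where a gene with a symbol passed the test of CS against PM2.5; with 1 set of controls for both, that test also compares the changes from control. The positions relative to control were not tested. ASRN6AP1B100002148V3 (log2 difference CS minus PM2.5 of 5.23) and ASRN6AP1B100070381V3 (3.51) had every CS array above and every PM2.5 array below every control array. The probes A_44_P503868, for XR_146859 (−2.19), and CUST_8_PI421900130 (−1.13) had the reverse order. LOC108352165 (1.48) passed the test, with its control level within the range of the CS arrays. All control arrays were scanned apart from the exposed arrays, and the part of that in these positions was not tested.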

How the results depend on the processing

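The count of 627 probes was 1382 after quantile normalization, 1874 after normexp, 1331 with the authors' log2 values, 1571 with a variance trend and robust eBayes, 2214 with all 9 arrays in the fit and 15205 with array weights, whose estimate stopped before it converged. It was 90 with the replicate number as a block, 387 with slide as a fixed block, which compares the same 4 arrays as the shared slide alone (387), and 287 on that slide after quantile normalization, a fit chosen after the data were seen. Without 1 array it was 132 to 414. Fewer arrays or residual degrees of freedom enter the blocked and reduced fits; the cause of the other changes was not tested. Centring on the median, other filters, slide as a random block, the median over spots and a further 2-fold threshold kept the count within 1.5 times.

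The count of genes with a symbol that passed, 1 in the reported fit, was 4 after quantile normalization, 4 with normexp, 4 with the authors' values, 2 after centring, 3 with a variance trend, 5 with all 9 arrays, 17 with array weights, 0 with the replicate block in limma (6 at an unadjusted p below 0.05) and 0 to 1 without 1 array. With array weights Cdh2 (−0.34) and Cyp2e1 (−0.36) passed with the sign turned. The replicate block, which is the archiving day, ended the call of LOC108352165 and changed no other call of a gene.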
